A study of Mus musculus with 2 samples.

Results

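The mitochondrially encoded genes were taken as all 37 genes of the gene tables whose GENCODE symbol starts with mt-, of 69691 features in each table. They comprise 2 ribosomal RNA (rRNA) genes, 13 protein-coding (mRNA) genes and 22 transfer RNA (tRNA) genes, and all 37 were found. The samples were megakaryocyte-erythroid progenitors (MEP), the marrow progenitors of red cells and of platelet-forming megakaryocytes, primary cells of C57BL/6J males 5 to 6 weeks old. The 2 libraries of total RNA were each made from 100 cells, in the size range over 200 bases and with spike-in RNAs; the labels call them biological replicates 1 and 2, give them separate biosamples and name the same donor record. No genetic change or treatment is named in the labels, and there was 1 group, so no test between groups was possible.

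Mitochondrial DNA is a small circular genome that carries genes for its own ribosomal and transfer RNAs and for core subunits of the respiratory chain and ATP synthase. It is transcribed from both strands as long precursors, and tRNAs lying between the other genes mark the places where the precursors are cut. All other mitochondrial proteins come from nuclear genes. In the red cell lineage, mitochondria carry the first and last steps of heme synthesis and are removed as the cell matures.

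Where 2 values stand together, the first is that of replicate 1 and the second that of replicate 2. Summed expected counts were 30016974 and 51510347. A chi-square of the counts over 12016 features with at least 10 counts in both libraries gave 85.9 per degree of freedom, so the tables are not duplicates. Reads are not independent, and this value cannot show whether the libraries are biologically separate. They were treated as 2 samples, as labelled. Levels are TPM, the authors' length-corrected abundance scaled to a fixed sum over all features, unless stated otherwise. All 6 erythroid markers were above 10 TPM in both libraries, whereas of 5 megakaryocyte markers 1 was, Itga2b. Markers of other cells separated the libraries. The 7 granulocyte markers summed to 1861 and 6.39 TPM, with Ngp, Lcn2, Elane and Mpo listed at 0 in replicate 2, and the 5 B cell markers summed to 3.41 and 107.9 TPM, with Vpreb1 at 0 in replicate 1. The 4 T and NK cell markers summed to 44.9 and 34.6 TPM, with Cd3g at 12.6 and 1.1 TPM and Cd3e at 4.1 and 8.24 TPM. The 3 stem cell markers summed to 2.56 and 3.60 TPM. The part of these markers' cells in the differences between libraries given here was not tested. In bulk RNA, fewer cells of a type and less RNA per cell cannot be told apart.

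Near-identical sequence elsewhere in the genome limits how single mitochondrial mRNAs can be read in these tables. Of the 13 mRNA genes, 9 had a nuclear pseudogene among the annotated genes whose transcript matched by blastn at 95% identity or more over at least 100 bases, 11 such copies in all. Neither rRNA gene had one, and the tRNA genes, shorter than 100 bases, could not pass. A run of 7 copies lay on mm10 chromosome 1 between 24611535 and 24616197 on the minus strand, 4663 bases, in the same order as the mitochondrial stretch from position 6390 to 11042, 4653 bases, from the end of mt-Co1 into mt-Nd4. The other 4 copies, on chromosomes 2 and 13, were 95.2% to 97.6% identical and held at most 54.1 counts in either library. The copies of mt-Atp6, mt-Co2, mt-Co3, mt-Nd4l and mt-Nd4 on chromosome 1 were 100% identical over their whole annotated length. The ends of mt-Nd4l and mt-Co3 are shown with those of their copies, since most of each pair's counts stood at the copy; capitals mark bases that the annotated copy lacks. Sequences are from GENCODE M21 transcripts on mm10, written 5′ to 3′.

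mt-Nd4l, chrM:10144-10173, plus strand: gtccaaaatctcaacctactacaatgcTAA
Gm10222, chr1:24612407-24612433, minus strand: gtccaaaatctcaacctactacaatgc
mt-Co3, chrM:9361-9390, plus strand: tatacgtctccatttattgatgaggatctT
Gm28437, chr1:24613189-24613217, minus strand: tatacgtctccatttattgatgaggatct

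The annotated mt-Nd4l thus differs from Gm10222 by its last 3 bases, the stop codon TAA, and mt-Co3 differs from Gm28437 by 1 final T. The mt-Co3, mt-Nd4 and mt-Cytb genes end in 1 base past the last whole codon, a T, and the other 10 mRNA genes end in TAA or TAG; it is known that such a T becomes a stop codon once the mRNA is polyadenylated. The 2 remaining copies on chromosome 1 each had 1 mismatch in their aligned part, shown in capitals and counted from 1 at the start of the mitochondrial gene: A1066T between mt-Co1 and Gm29216, near the start of the shared stretch, and T3C between mt-Nd3 and Gm28438, in the first codon. The part aligned with Gm29216 starts at position 1063 of mt-Co1, and the bases printed before it in both lines lie outside the alignment.

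mt-Co1, chrM:6379-6407, plus strand: gtggtctaaccggaAttgttttatccaac
Gm29216, chr1:24616171-24616197, minus strand: ggattggcaggaTttgttttatccaac
mt-Nd3, chrM:9459-9475, plus strand: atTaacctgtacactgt
Gm28438, chr1:24613103-24613119, minus strand: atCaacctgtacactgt

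The deposited effective lengths, the number of places where a fragment can start, implied a mean fragment of 137 bases in replicate 1 and 167 in replicate 2. Of the 648 places that a fragment of 137 bases can take in mt-Co3, 647 also exist in Gm28437, and 1 is found in mt-Co3 alone. For mt-Co2, 545 of 548 places were shared with Gm28661, for mt-Atp6 542 of 545 with Gm10925, for mt-Nd4l 158 of 161 with Gm10222 and for mt-Nd3 206 of 212 with Gm28438. For mt-Nd4 740 of 1242 were shared with Gm28439, and for mt-Co1 343 of 1409 with Gm29216. With fragments of 167 bases the shared part stayed within 96.7% to 99.8% for the first 5 genes. mt-Nd1, mt-Atp8, mt-Nd6 and mt-Cytb had no annotated copy, and the copies of mt-Nd2 and mt-Nd5 shared no place with them. mt-Atp8 lies within the mitochondrial stretch that the run on chromosome 1 follows, where no copy of it is annotated, so the tables hold no separate count for one.

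Mitochondrial rRNA was by far the largest class. The 2 rRNA genes took 4820500 counts in replicate 1, 16.06% of its summed expected counts (95% Clopper-Pearson interval 16.05 to 16.07), and 8314131 in replicate 2, 16.14% (16.13 to 16.15). The 13 mRNA genes took 179376 counts, 0.598% (0.595 to 0.600), and 337436 counts, 0.655% (0.653 to 0.657). Reads are not independent molecules, so these intervals hold counting error and nothing else. The gap between the libraries was wider than they are for rRNA and for mRNA. All 37 genes together took 16.7% ± 0.0983 of counts (SD, n = 2).

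mt-Rnr1 (ENSMUSG00000064337.1, mm10 chromosome M, 70 to 1024, plus strand) encodes the 12S rRNA of the small ribosomal subunit. It stood at 94557 and 98207 TPM, from 1701693 and 2992527 counts. mt-Rnr2 (ENSMUSG00000064339.1, 1094 to 2675, plus strand), the 16S rRNA of the large subunit, stood at 98163 and 97304 TPM, from 3118807 and 5321604 counts. The ratio of mt-Rnr2 to mt-Rnr1 was 1.04 and 0.991, so on the TPM scale their order changed with the library. With annotated in place of effective length the ratio was 1.11 and 1.07, above 1 in both. The posterior standard deviation that the authors deposited for their counts was at most 0.06 counts, which means that the reads of both were placed without ambiguity among the annotated transcripts. mt-Rnr2 was 105 times mt-Nd1, the mRNA next downstream after 1 tRNA, in replicate 1 and 99.95 times in replicate 2. Over all genes, rRNA exceeded mRNA by 18.7 and 16.5 times in summed TPM, and by 13.9 and 13.0 times once the counts of the nuclear copies were added to the mRNAs.

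Of the 13 mRNAs, 12 had counts in both libraries as deposited, at levels from 90.4 to 2035 TPM in replicate 1 and from 93.6 to 2774 TPM in replicate 2, and mt-Nd4l was listed at 0 in both. They are given by the complex they serve. For each gene with copies, the level with the copies' counts added, divided by the gene's own effective length and put on the same TPM scale, stands beside the deposited one. That level credits every count of a copy to the mitochondrial gene. Whether those reads came from the gene or from the copy was not tested.

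mt-Nd1 to mt-Nd6 and mt-Nd4l encode the 7 membrane subunits of complex I, the NADH dehydrogenase that opens the respiratory chain. mt-Nd1 (2751 to 3707) was at 935 and 974 TPM, or 954 ± 27.0 TPM (SD, n = 2), the highest of the 7 as deposited. mt-Nd4 (10167 to 11544) was at 749 and 897 TPM, and mt-Nd5 (11742 to 13565) was at 460 and 584 TPM. Adding the copies left both levels within 1 TPM of the deposited values. mt-Nd2 (3914 to 4951) was at 404 and 530 TPM. The last 3 genes were higher in replicate 2 by 1.20 to 1.31 times on this scale.
mt-Nd3 (9459 to 9806) was at 348 and 259 TPM, from 1622 and 1842 counts, and its copy Gm28438 was listed at 0 in both. mt-Nd6 (13552 to 14070, minus strand) was the lowest mRNA with counts, at 90.4 and 93.6 TPM from 761 and 1277 counts. mt-Nd4l (9877 to 10173) was listed at 0 in both libraries, while Gm10222 held 2567 and 5810 counts, 100% of the pair. With those counts, mt-Nd4l came to 722 and 1111 TPM, or 916 ± 275 (SD, n = 2), a wider spread than that of mt-Nd1. The range of complex I genes as deposited thus ran from 0 to 935 TPM in replicate 1, and with copies from 90.4 to 935 TPM.

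mt-Cytb (14145 to 15288) encodes cytochrome b, the only mitochondrially encoded subunit of complex III, which passes electrons to cytochrome c. It was at 801 and 982 TPM, or 891 ± 128 TPM (SD, n = 2), and had no copy past the threshold. Its level lay between those of mt-Nd4 and mt-Nd1 in replicate 1 and just above mt-Nd1 in replicate 2, so it was above mt-Nd4 in both libraries, and its order with mt-Nd1 changed with the library.

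mt-Co1, mt-Co2 and mt-Co3 encode the catalytic core of complex IV, cytochrome c oxidase. mt-Co1 (5328 to 6872) was at 1887 and 2083 TPM. Its partial copy Gm29216 held 12051 counts, 17.1% of the pair, in replicate 1 and 11213, 9.18%, in replicate 2, so the shallower library gave more counts to the copy. The authors' posterior standard deviation for Gm29216 was 98.75 and 129.86 counts. The second copy of mt-Co1, Gm13340 on chromosome 2, held 54.1 and 49.6 counts. It shared 12 of 1409 places with mt-Co1 for fragments of 137 bases, and 0 of 1379 for fragments of 167 bases. With both added, mt-Co1 stood at 2278 and 2295 TPM, or 2286 ± 11.4 (SD, n = 2), closer between libraries than as deposited.
mt-Co2 (7013 to 7696) was at 713 and 586 TPM. Gm28661 took 59.5% and 56.7% of the pair's counts, and with copies mt-Co2 stood at 1760 and 1352 TPM. mt-Co3 (8607 to 9390) was at 197 and 125 TPM from 2807 and 2974 counts, while Gm28437 held 19765 and 26255. The copy's part was 87.6% and 89.8%, and with it mt-Co3 came to 1585 and 1225 TPM. As deposited, mt-Co1 exceeded mt-Co3 by 9.57 and 16.7 times, and with copies by 1.44 and 1.87 times. The authors' posterior mean TPM of mt-Co3 was 542 and 456, between its deposited level and that with copies, beside 1809 and 2018 for mt-Co1. On the second scale the lowest value of the 3 genes of complex IV was 1225 TPM, and the highest of the 7 genes of complex I was 1111 TPM, both in replicate 2.

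mt-Atp6 and mt-Atp8 encode subunits of the membrane part of ATP synthase, complex V, and are made from 1 bicistronic mRNA. mt-Atp6 (7927 to 8607) was at 2035 and 1951 TPM, or 1993 ± 60.0 TPM (SD, n = 2), with 0.633% and 0% of the pair's counts on Gm10925. mt-Atp8 (7766 to 7969) was at 1660 and 2774 TPM, from 2664 and 5802 counts, and was thus below mt-Atp6 in replicate 1 and above it in replicate 2. At 204 bases it is the shortest mRNA gene, and its effective length was 73.03 bases in replicate 1 and 54.15 in replicate 2. With annotated in place of effective length, scaled to the same sum, its level was 703 and 899, against 1926 and 1800 for mt-Atp6, a ratio of 0.365 and 0.499. The order of these genes therefore changed with the length correction as well as with the library. The genes overlap by 43 bases, printed here with the first codon of mt-Atp6 and the last of mt-Atp8 in capitals. A fragment lying wholly within the overlap would match both genes, but the mean fragments of 137 and 167 bases are longer than the overlap.

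mt-Atp8 and mt-Atp6, chrM:7927-7969, plus strand: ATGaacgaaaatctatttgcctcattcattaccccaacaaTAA

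**Figure D1:**
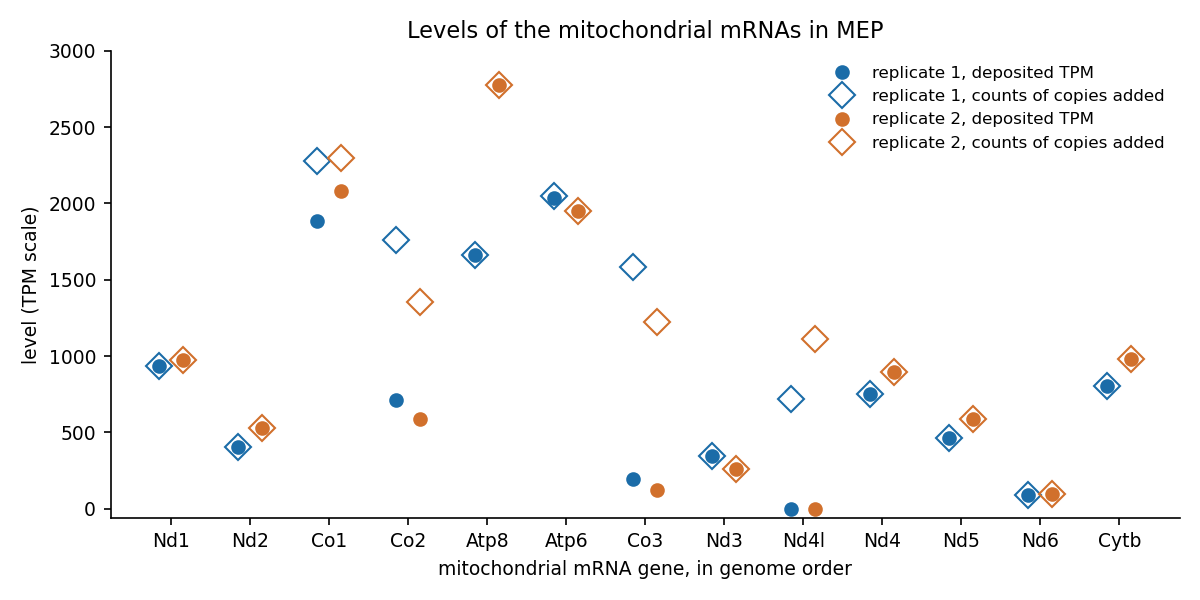
Level on the TPM scale (vertical axis) of the 13 mitochondrial mRNA genes in genome order (horizontal axis) in each library. Filled circles are the deposited TPM and open diamonds the level with the counts of nuclear copies added; mt-Nd4l moves from 0 to 722 and 1111, and mt-Co3 from 197 and 125 to 1585 and 1225.

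**Figure D2:**
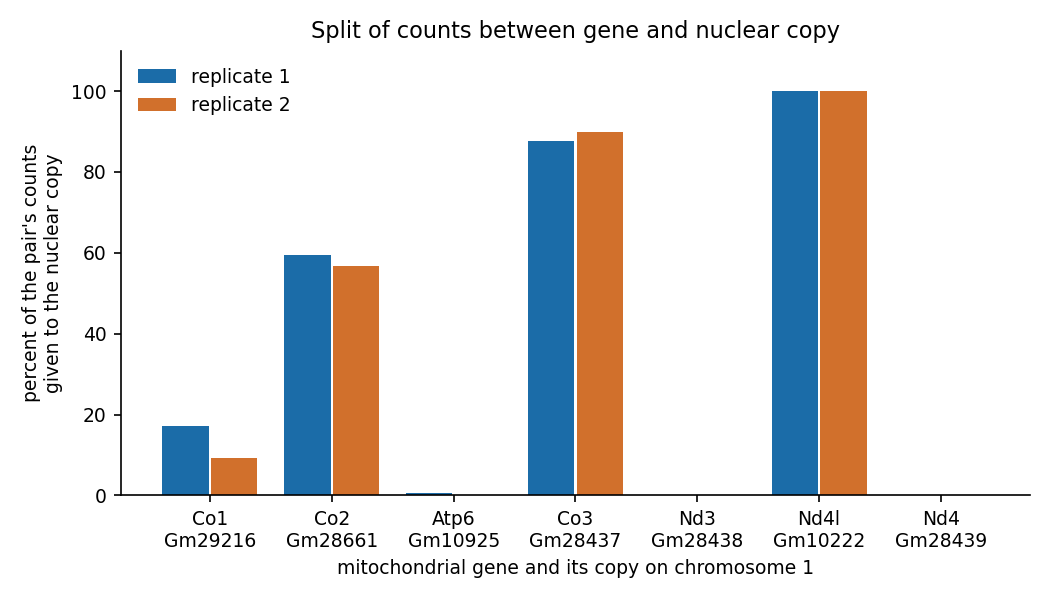
Percent of the counts of each pair (vertical axis, bars from 0) that the deposited tables gave to the copy on chromosome 1, by library, for the 7 pairs in genome order. The copy took 100% for mt-Nd4l, over 87% for mt-Co3 and over 56% for mt-Co2, but under 1% for mt-Atp6, mt-Nd3 and mt-Nd4.

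The authors' own uncertainty was widest for mt-Co3 and mt-Co2. Their tables give a credibility interval of TPM for each gene, whose level is not stated in the sources used here, around a posterior mean that differs from the TPM. For mt-Co3 it ran from 15.1 to 1214 TPM in replicate 1 and from 59.6 to 1014 TPM in replicate 2, with posterior standard deviations of 6070 and 8899 counts. For mt-Co2 it ran from 579 to 1260 TPM and from 468 to 1088 TPM. For mt-Nd1 it ran only from 883 to 910 TPM and from 932 to 954 TPM, and for mt-Nd6 from 80.7 to 93.1 TPM and from 85.8 to 95.7 TPM. The interval of mt-Nd4l, from near 0 to 23.96 and 15.6 TPM, was narrow and low, although 98.1% and 97.7% of its places were shared with Gm10222. The copies held 47206 counts in replicate 1 and 58683 in replicate 2 in all, 20.8% and 14.8% of the counts of copies and mitochondrial mRNAs together.

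**Figure D3:**
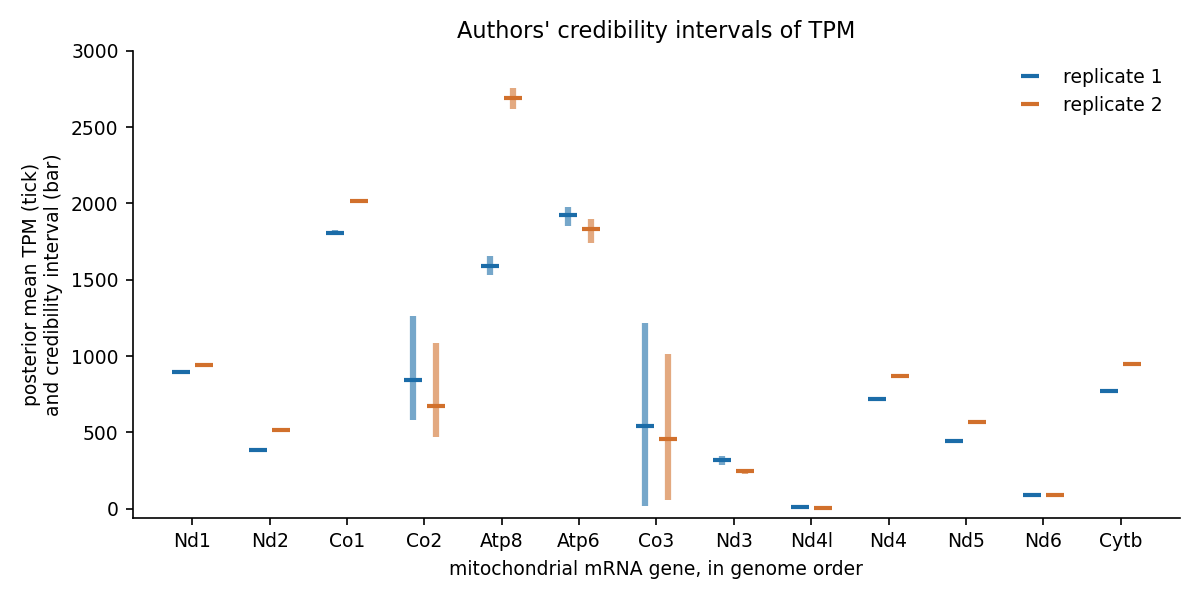
Posterior mean TPM (ticks) and the authors' credibility interval (bars) of the 13 mRNA genes in each library. Bars are longest for mt-Co3, from 15.1 to 1214 TPM in replicate 1, and for mt-Co2.

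With copies added, the order from the highest mean level was mt-Co1 at 2286, mt-Atp8 at 2217, mt-Atp6 at 1999, mt-Co2 at 1556, mt-Co3 at 1405, mt-Nd1 at 954, mt-Nd4l at 916, mt-Cytb at 891, mt-Nd4 at 823, mt-Nd5 at 522, mt-Nd2 at 467, mt-Nd3 at 303 and mt-Nd6 at 92.0 TPM. The SD of mt-Atp8 was 787 and that of mt-Co2 289, and mt-Atp8 was below mt-Co1 and mt-Atp6 in replicate 1 and above both in replicate 2. mt-Nd4l likewise was below mt-Nd1, mt-Cytb and mt-Nd4 in replicate 1 and above them in replicate 2. Between libraries the ranges of mt-Co2 and mt-Co3 overlapped, as did those of mt-Nd5 and mt-Nd2, but within each library mt-Co2 was above mt-Co3 and mt-Nd5 above mt-Nd2. The highest plus-strand mRNA exceeded the lowest, mt-Nd3, by 6.56 and 10.7 times. Compared with nuclear protein-coding genes as deposited, 23 and 26 lay above mt-Co1, and 574 and 686 lay above mt-Nd6.

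Strand and position on the genome were then compared. The plus strand carries both rRNA genes, 12 mRNA genes and 14 tRNA genes, and the minus strand carries mt-Nd6 and 8 tRNA genes. mt-Nd6, the mRNA made from the opposite strand, was below every plus-strand mRNA with counts in both libraries. The median plus-strand mRNA exceeded it by 8.09 and 7.92 times as deposited, and by 9.60 and 11.2 times with copies. Its neighbour mt-Nd5, which runs the other way and overlaps it by 14 bases, was 5.09 and 6.24 times as high, and mt-Cytb, on its other side past a tRNA, 8.86 and 10.5 times. The deposited files include signal by strand per the README beside the tables, but whether the counting used strand is not given in the sources used here; without it, reads from the plus-strand precursor across mt-Nd6 could not be told from those of mt-Nd6. The overlap is shown on the plus strand, in capitals.

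mt-Nd5 and mt-Nd6, chrM:13545-13572, plus strand: tactcaaTTAATCTCGAGTAAtctcgat

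Along the 12 plus-strand mRNAs, level and start position had a Spearman rho of -0.30 and -0.24 as deposited, and of -0.38 and -0.26 with copies. Pearson's r of log2(TPM + 1) with position was -0.22 and -0.21, and with copies -0.24 and -0.18. These are descriptions over 12 genes of 1 genome that share a library and a precursor, and a weak relation over so few points is no finding. The steep step lay between the rRNA genes and mt-Nd1, not among the mRNAs. Neighbouring mRNA genes differed. mt-Nd2, between mt-Nd1 and mt-Co1, was at 404 and 530 TPM, below both, and mt-Nd3, between mt-Co3 and mt-Nd4l, was below both once copies were added.

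mt-Nd4l and mt-Nd4 are likewise carried on 1 bicistronic mRNA and overlap by 7 bases, in capitals.

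mt-Nd4l and mt-Nd4, chrM:10153-10187, plus strand: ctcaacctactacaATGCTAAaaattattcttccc

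As deposited, their ratio was 0, and with copies it was 0.963 and 1.24. The ratio of mt-Atp8 to mt-Atp6, the other bicistronic pair, was 0.811 and 1.42 with copies. With effective lengths, both ratios lay below 1 in replicate 1 and above 1 in replicate 2. With annotated lengths and no copies, that of mt-Atp8 to mt-Atp6 was 0.365 and 0.499, below 1 in both. The ratio of mt-Nd4l to mt-Nd4 with copies was not computed on annotated lengths.

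The tRNA genes, which bring amino acids to the mitochondrial ribosome and punctuate the precursors, gave no value. All 22, from 59 bases for mt-Ts2 to 75 bases for mt-Tl1, had 0 expected counts in both libraries. Each was listed with an effective length of 0, as were 27754 and 27941 features in all; among those, 5 and 6 held any count. A gene shorter than the fragments cannot hold a whole fragment, so a limit from a count of 0 does not apply, and whether tRNA was in the libraries is not answered. Of 36 neighbouring pairs of genes on the mitochondrial genome, 9 overlapped, 12 adjoined with no gap and the widest gap was 32 bases. Fragments across a junction, such as those of an uncut precursor, lie in no single annotated transcript.

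Between the libraries, no mitochondrial gene differed by 2-fold in TPM. On the log2(TPM + 1) scale, replicate 2 minus replicate 1, the pseudocount understating changes of low genes, none of 14 members with a mean of at least 1 TPM was 2-fold or more higher, against 6.92% of 11456 features. None was 2-fold or more lower, against 4.38% of features. The members ran from -0.66 for mt-Co3 to 0.74 for mt-Atp8, with a median of 0.06 against 0.18 over all features, and 9 of the 14 were above 0. mt-Nd4l, at 0 in both, did not reach 1 TPM. Few abundant genes differed that much: of 556 nuclear protein-coding genes with a mean of at least 100 TPM, 2 were higher and 5 lower by 2-fold, with a median of 0.24. The rRNAs were at 0.05 for mt-Rnr1 and -0.01 for mt-Rnr2. With copies added to the genes, 15 members ran from -0.42 for mt-Nd3 to 0.74 for mt-Atp8, and mt-Co1 was at 0.01. mt-Nd4l was then at 0.62, next to mt-Atp8, and these are the 2 shortest of the mRNA genes, whose effective lengths differ most, in proportion, between libraries. The next shortest, mt-Nd3 at 348 bases, with effective lengths of 212.4 and 184.2, was the lowest of all at -0.42. The part of effective length in these differences was not tested. The sign depended on the scaling for 9 of the 14. With CPM and edgeR's TMM factors mt-Rnr1, mt-Nd1, mt-Co1 and mt-Nd6 turned from above to below 0, and per spike-in count all 14 were above 0. With TMM factors the median was -0.17 and mt-Rnr1 was at -0.17, with 3.42% of features 2-fold or more higher and 3.85% lower. For mt-Atp8 that scale, which has no length correction, gave 0.14 in place of 0.74. Longer genes also moved down on it, mt-Nd1 from 0.06 to -0.16 and mt-Nd2 from 0.39 to 0.18, so only part of the step is particular to mt-Atp8. Per spike-in count the median was 0.81 and 5 members were 2-fold or more higher, as were 42.6% of features.

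**Figure D4:**
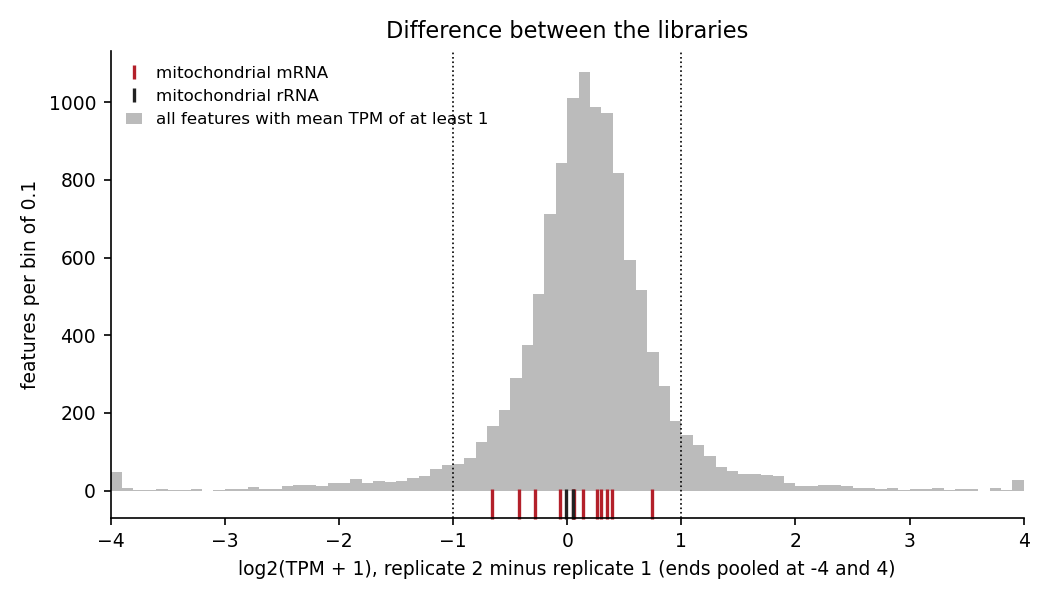
Number of features (grey bars, per bin of 0.1) by their log2(TPM + 1) difference, replicate 2 minus replicate 1, for 11456 features, with ticks for mitochondrial genes. All 14 ticks lie between the dotted lines at a 2-fold difference, from -0.66 to 0.74.

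The mitochondrial mRNAs were set beside the nuclear genes for subunits of the same complexes, as TPM levels. The 36 nuclear complex I genes had medians of 82.2 and 97.7 TPM, and the 7 mitochondrial ones, with copies, 460 and 584 TPM. Ndufb8 and Ndufa3, the highest nuclear ones, at 216 ± 18.1 and 208 ± 26.9 TPM (SD, n = 2), were above mt-Nd6 and below the other 6. For complex III, 9 nuclear genes had medians of 119.7 and 170 TPM against 801 and 982 TPM for mt-Cytb, and the highest, the hinge protein gene Uqcrh and Uqcr11, were at 498 ± 96.1 and 266 ± 91.7 TPM (SD, n = 2). For complex IV, 11 nuclear genes had medians of 305 and 358 TPM against 1760 and 1352 TPM, with Cox4i1 at 509 ± 105.5 and Cox7c at 361 ± 79.4 TPM (SD, n = 2).
The 17 nuclear genes whose symbols start with Atp5 had medians of 220 and 257 TPM against 1854 and 2362 TPM for the 2 mitochondrial genes of complex V. Atp5b, the catalytic beta subunit, at 1058 ± 202 TPM (SD, n = 2), and Atp5g1, a gene of the c ring, at 440 ± 38.6 TPM (SD, n = 2), were the named ones. As deposited, the mitochondrial medians of complex IV were 713 and 586 TPM. By its deposited mean, 161 TPM, mt-Co3 was below all 11 nuclear genes of complex IV, of which Cox7a2, named after its values were seen, had the lowest mean at 186 TPM. In replicate 1 alone mt-Co3, at 197 TPM, was above 3 of them, Cox7a2, Cox7b and Cox5a. mt-Nd4l was listed at 0. All 73 nuclear genes were at 1 TPM or more in both libraries, and none was 2-fold apart, against 6.92% of all features higher and 4.38% lower. Their median log2 difference was 0.32, against 0.18 over all features. Among the 556 nuclear protein-coding genes with a mean of at least 100 TPM, 2 were higher and 5 lower by 2-fold, and the median was 0.24. The features with mean TPM of at least 1 had median levels of 10.6 and 11.99 TPM.

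**Figure D5:**
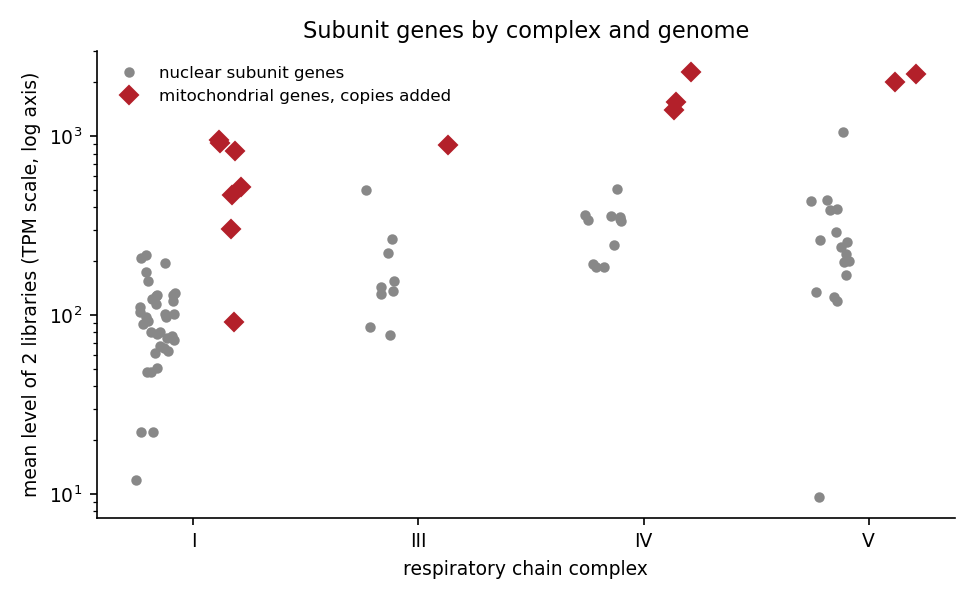
Mean level of 2 libraries (vertical log axis, TPM scale) of nuclear subunit genes (grey circles, deposited TPM) and mitochondrial genes (red diamonds, copies added) of complexes I, III, IV and V. With all counts of the copies credited to the mitochondrial genes, every one but mt-Nd6, at 92.0, lies above all nuclear genes of its complex. As deposited, mt-Co3, at a mean of 161, lies below all nuclear genes of complex IV, and mt-Nd4l is at 0.

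Of the nuclear genes that transcribe, process, guard and translate mitochondrial RNA, 66 of the listed ones were measured. In both libraries 65 reached 1 TPM and 37 reached 10 TPM, with medians of 13.0 and 15.7 TPM. In the group for transcription and replication, with medians of 9.72 and 14.04 TPM, Mrpl12, a mitochondrial ribosomal protein, was at 86.2 ± 25.3 TPM and Ssbp1, the single-strand DNA binding protein, at 72.0 ± 29.0 TPM (SD, n = 2). Tfam, which coats mitochondrial DNA and starts its transcription, was at 18.7 and 38.1 TPM. The DNA polymerase gene Polg was at 29.9 and 18.7 TPM, and Polrmt, the RNA polymerase, named after its values were seen, at 18.7 and 24.3 TPM. In the group for RNA processing and modification, Hsd17b10, a subunit of the mitochondrial RNase P that cuts tRNA 5′ ends, was at 42.4 ± 3.37 TPM (SD, n = 2). Trnt1, which adds CCA to tRNAs, was at 31.6 ± 5.72 TPM, and the tRNA modification genes Pus1 and Trmu were at 29.3 ± 7.92 and 27.8 ± 11.3 TPM (SD, n = 2).
The group for stability and decay was the highest, with medians of 25.9 and 29.6 TPM. Slirp, which with Lrpprc protects mitochondrial mRNAs, was at 89.3 ± 19.1 TPM and the oligoribonuclease gene Rexo2 at 83.2 ± 5.41 TPM (SD, n = 2). Tbrg4 and Fastk, of a family of mitochondrial RNA-binding proteins, were at 53.9 ± 10.2 and 52.7 ± 15.2 TPM (SD, n = 2). In the group of translation factors, Tufm and Tsfm, elongation factors of the mitochondrial ribosome, were at 56.5 ± 7.50 and 23.1 ± 8.12 TPM (SD, n = 2). Gfm1 and Gfm2, its elongation and recycling G factors, were at 22.2 ± 2.76 and 19.7 ± 5.57 TPM (SD, n = 2).
On the log2(TPM + 1) scale, 2 of 66 genes were 2-fold or more higher in replicate 2. They were the tRNA methyltransferase gene Trmt5, at 7.75 and 16.7 TPM, and the tRNA isopentenyl transferase gene Trit1, at 4.5 and 10.99 TPM. In TPM itself Tfam, at 18.7 and 38.15, and the translation factor gene Mtif3, at 3.91 and 8.1, also passed 2-fold. With the pseudocount their log2 differences were 0.99 and 0.89, so they were not called. Mterf1b was lower, at 2.54 and 0.35 TPM, and neither its deposited counts, 68.9 and 16.5, nor those of its paralog Mterf1a are whole numbers, so reads were split. Trit1, Mtif3 and Mterf1b were named after their values were seen. These shares, 2 and 1 of 66, are below the 6.92% and 4.38% of all features.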

How the data were processed

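Total RNA-seq of 2 MEP libraries was analysed from 1 gene table per library. The authors used mm10 and GENCODE M4, per the README deposited with each library; which aligner and quantifier made the tables is not given in the sources used here. Expected counts, as deposited, are the authors' estimates, in which reads that match several features are split. The deposited TPM values were divided by effective length and scaled to a fixed sum over all features by the authors. The deposited signal columns are bounds of credibility intervals of TPM, and the deposited score column is the posterior standard deviation of the count. Transcript tables were not used: each member has 1 transcript.

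Symbols, biotypes and coordinates came from GENCODE M21 (GRCm38, the assembly also called mm10) (identifiers stripped of versions); of 43346 Ensembl identifiers 42462 matched, and all 37 member lengths were equal in both releases. Nuclear copies were found with blastn 2.17.0 (word size 11, E-value 1e-05) between M21 transcripts, at 95% identity over 100 bases; 10 of the 11 had equal lengths in the tables. Members, lists and rules were chosen with earlier results of these data known. Named were all rRNA and mRNA members, copies with 10 counts in both libraries and any others printed with their values, the 4 highest genes of each pathway group with those 2-fold apart at 10 TPM, and the 2 highest nuclear subunits of each complex. Differences used log2(TPM + 1). With 1 group of 2 libraries no test between groups was made; a chi-square of the counts was used to check that the libraries differ, and the fold calls were tested on simulated data. Spread between libraries may be technical. Alternatives used edgeR 4.0.16 and DESeq2 1.42.0 factors in R 4.3.3 on rounded expected counts. Tables were handled with pandas 2.3.3 in Python 3.11.15, intervals computed with scipy 1.17.1 and plots drawn with matplotlib 3.10.9.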

Additional observations from a re-analysis of the deposited data

How the results depend on the processing

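With 1 group of 2 libraries, depth and replicate spread limit every value here to a description, and each value from a single library lay within 1 SD of the mean by construction. No paired analysis was possible because there is 1 group and no test. For levels, ratios and differences, adding the copies' counts over the gene's effective length was an alternative chosen after seeing the data; adding them to the shares, and adding the copies' TPM, were planned. The cause of each change named here was not tested. Of the summary values under all alternatives, 56 moved by less than the spread or the set margin and 34 moved further. For levels of single genes these numbers were 58 and 32, and for differences of single genes 58 and 47. The spread was the SD between libraries, used for shares, levels and ratios. Median differences counted as moved when their rounded value changed, as from 0.0561 to 0.0546. Numbers of features had a wide margin in fold, so 793 features higher, and 1113 with a pseudocount of 0.1, counted as unmoved. Among summaries and levels, the unmoved values include those from a single library, which could not move. The unmoved summaries also include the tRNA counts, fixed at 0. The numbers unmoved for summaries and levels thus overstate how stable these values were.

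Over nuclear protein-coding and mitochondrial genes alone, the mitochondrial share rose from 16.7% to 26.1%, that of rRNA from 16.1% to 25.1% and that of mRNA from 0.626% to 0.974%. With copies, the mitochondrial share was 16.9% and that of mRNA 0.762%. The rRNA to mRNA ratio, 17.6, was 21.02 with annotated lengths, 12.6 with the copies' TPM added and 13.5 with their counts added. The mt-Rnr2 to mt-Rnr1 ratio was 1.09 with annotated lengths, above 1 in both libraries, whereas in TPM it lay on either side of 1. The median plus-strand mRNA over mt-Nd6, 8.0 as deposited, was 9.34 with annotated lengths, 8.53 with posterior mean TPM, and 10.5 and 10.4 with the copies' TPM and counts. The mt-Atp8 to mt-Atp6 ratio, 1.12, was 0.432 with annotated lengths. The mt-Nd4l to mt-Nd4 ratio was 0.0096 with posterior mean TPM, and 1.12 and 1.10 with the copies' TPM and counts.

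The members' median log2 difference, 0.0561, was 0.0546 with no filter on TPM, 0.0702 with posterior mean TPM, 0.0546 with copies' counts, -0.17 with TMM and -0.17 with DESeq2 factors, and 0.81 per spike-in count. The median of all features, 0.18, was 0.19 with a pseudocount of 0.1, 0 with no filter, 0.0096 with TMM and 0.0093 with DESeq2 factors, 0.93 per spike-in count and -0.0268 with posterior mean TPM. Features 2-fold or more higher numbered 793, and 390 with TMM and 390 with DESeq2 factors. Per spike-in count, 4875 features were higher and 99 lower, against 502 lower in TPM, and 5 members were higher.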
